A study of Homo sapiens with 6 samples.

Results

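The genes examined here encode the main heat shock proteins of the cytosol and the mitochondrial matrix, with their closest partners. They are the HSP70 genes HSPA8, HSPA1A and HSPA1B, the HSP90 genes HSP90AA1 and HSP90AB1, the cochaperone genes DNAJB1, HSPH1 and BAG3, the small heat shock protein gene HSPB1 and the mitochondrial chaperonin gene HSPD1. The rule that chose them uses gene names alone, and all 10 had a row of their own among the 58735 rows of the expression table. RNA was sequenced from MDA-MB-231 cells, an established line derived from a human breast adenocarcinoma, in 6 libraries. In 3 libraries the cells had received 0 Gy (0 Gy libraries, named control in the labels), and in 3 they had received 10 Gy of gamma rays from a caesium source and were collected 24 h later (10 Gy libraries, named RT). All 6 libraries are marked SCR and carry the genotype label WT, and the study's methods use shSCR for cells with a non-targeting shRNA. Nothing in the labels says whether these cells are a clone or a pool, or whether the replicates came from separate cultures, so p-values measure only the spread between these samples, which may be technical.

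Heat shock proteins are molecular chaperones: they bind unfolded or partly folded proteins, keep them from aggregating and help them fold. HSP70 proteins work in cycles of ATP hydrolysis that J-domain proteins start and nucleotide exchange factors end, and HSP90 proteins receive clients from HSP70, among them many kinases and steroid hormone receptors. Under proteotoxic stress the transcription factor HSF1 binds heat shock elements, which are inverted repeats of GAA, and induces HSPA1A, HSPA1B, DNAJB1, HSPH1, BAG3, HSPB1 and HSP90AA1 above all, while HSPA8 and HSP90AB1 are transcribed at high levels in unstressed cells as well. Cancer cells are known for high chaperone levels, and HSP90 inhibitors have been studied as sensitizers to radiation.

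The libraries held 15643641 to 21928560 recovered reads on genes at 0 Gy and 17570365 to 28861781 at 10 Gy. Of the 7 markers fixed for the MDA-MB-231 line, all 7 were expressed. Of 6 luminal genes ESR1, PGR and CDH1 were below 1 FPKM or listed at 0, whereas KRT8 averaged 94.97, ERBB2 7.08 and EPCAM 1.44 FPKM at 0 Gy. At 10 Gy 5 of the 7 markers of the line were lower and 1 was higher on the deposited scale (23.7% and 11.9% of all tested genes). After TPM rescaling 3 were lower and 1 higher (1066 and 3113 of all 12128 tested genes). After upper quartile scaling 0 were lower and 1 higher (122 and 3923 of all tested genes). Of 7 genes that mark blood, endothelial and stromal cells, 5 averaged under 1 FPKM, and PECAM1 and COL1A1 were higher at 10 Gy (summed level of the list 4.60 to 4.77 FPKM at 0 Gy and 6.28 to 6.55 FPKM at 10 Gy), and the part of either list in the results was not tested. FPKM is the number of fragments divided by gene length and by library depth. The depth implied by the deposited values was not simply the number of recovered reads. It was 0.973 to 0.991 of that number at 0 Gy and 1.028 to 1.039 of it at 10 Gy. This difference lowers FPKM at 10 Gy relative to 0 Gy, and its origin was not tested. Changes were tested with limma on the log2 of FPKM plus 1 in the 12128 genes that averaged 1 FPKM or more, and a gene was called at a Benjamini-Hochberg adjusted p under 0.05 over all of them. The scale of the values differs between the doses: the FPKM of all genes summed to between 269611 and 278380 at 0 Gy and to between 246920 and 254918 at 10 Gy. The median log2 fold change of all tested genes was -0.04 with the FPKM as deposited, and rescaling to TPM or by the upper quartile shifted it upward by 0.12 and 0.22. Median-of-ratios scaling brought it to 0.00082. The upper quartile was that of the values above 0 in each library. Such values numbered 22169 to 23975 at 0 Gy and 24876 to 26496 at 10 Gy, and their part in the upward shift was not tested. The changes of the 10 genes are therefore also placed relative to the median of all genes, and the gene lists are given under these scalings too. Each of these scalings divides all values of a library by a single constant, which shifts all genes by similar amounts. A gene's place relative to the median is thus largely kept by construction, and its recurrence under several scalings is not separate support. Of 6 markers of irradiation and cycling, 3 were higher on the deposited scale, the cycling genes TOP2A, CCNB1 and CDC20 (log2 fold changes 0.25, 0.42 and 0.31). CDKN1A was lower there (-0.30) but was not called after TPM or upper quartile scaling. MDM2 (-0.10) and MKI67 (0.02) were not called on the deposited scale. The summed level of the list was 477 to 486 FPKM at 0 Gy and 567 to 576 FPKM at 10 Gy, and its part in the results was not tested.

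All 10 genes were expressed in unirradiated cells, over a range from 11.5 to 798 FPKM. HSP90AB1, the constitutive cytosolic HSP90, stood highest at 798 ± 31.9 FPKM (SD, n = 3) and ranked 23 among all genes by level. It was followed by HSPA8, the constitutive HSP70, at 415 ± 12.7 FPKM and by HSP90AA1, the inducible cytosolic HSP90, at 368 ± 5.28 FPKM (SD, n = 3). These 3 genes made up between 81.3 and 82.2% of the summed FPKM of the 10 at 0 Gy and between 79.9 and 80.5% at 10 Gy. HSPD1, which encodes the chaperonin HSP60, came next at 139 ± 3.42 FPKM (SD, n = 3). A middle group followed with BAG3 at 67.4 ± 4.25, DNAJB1 at 50.9 ± 0.142, HSPB1 at 43.0 ± 3.36 and HSPH1 at 25.1 ± 0.236 FPKM (SD, n = 3). The stress-inducible HSP70 genes were lowest, HSPA1B at 17.8 ± 0.375 and HSPA1A at 11.5 ± 1.10 FPKM (SD, n = 3). If reads that fit both of these genes were left out of the counts, their levels and their place in the order could be too low. The ranges of the 0 Gy libraries did not overlap between any neighbours in this order. With the deposited lengths the order at 10 Gy differed in 1 place with ranges apart, since HSP90AA1 (361 to 380.3 FPKM) lay above HSPA8 (333 to 349 FPKM). The ranges of DNAJB1 and HSPB1 overlapped at 10 Gy. The order also depends on the gene length by which reads are divided. With the length of the longest coding transcript in place of the deposited length, an alternative chosen after seeing the data, BAG3 moved from position 5 to position 7 at 0 Gy. It then lay below DNAJB1 and HSPB1, and the remaining genes kept their order. HSPA8 and HSP90AA1 were then further apart at 0 Gy, at 816 and 550 FPKM. The order at 10 Gy was not computed with these lengths, so the exchange of HSPA8 and HSP90AA1 is shown for the deposited lengths only.

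**Figure D1:**
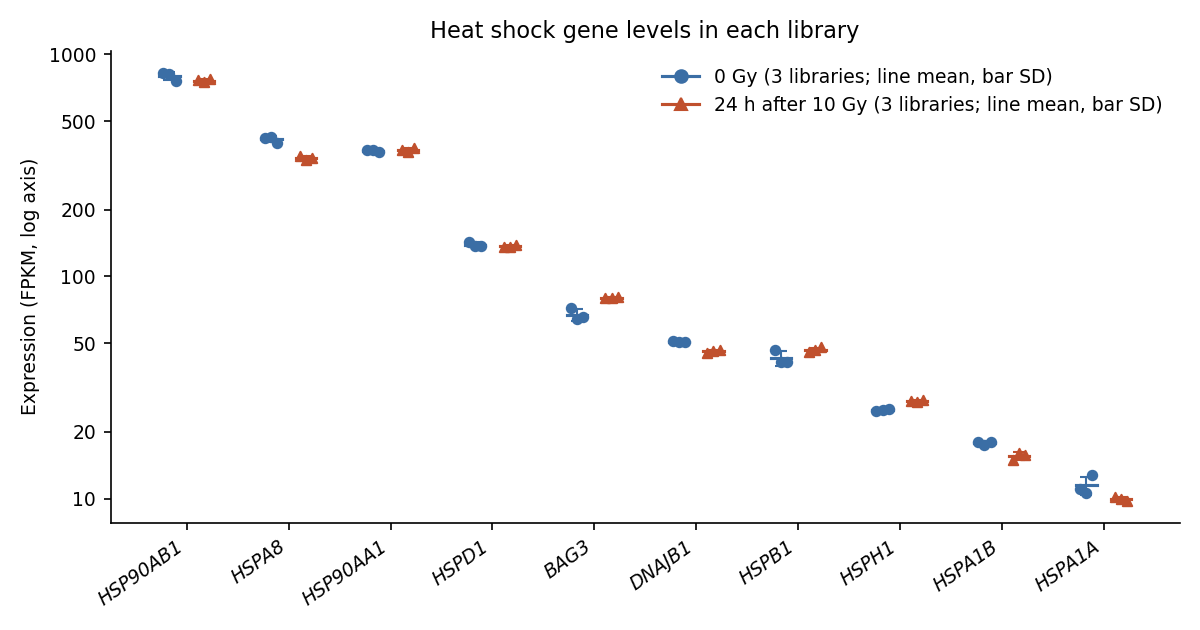
Expression of the 10 heat shock genes in each library, as FPKM on a log axis, with circles for the 3 libraries at 0 Gy, triangles for the 3 libraries 24 h after 10 Gy, lines for group means and bars for SD. Levels run from about 798 FPKM for HSP90AB1 to 11.5 FPKM for HSPA1A at 0 Gy, and the distances between genes exceed those between doses.

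Over the 10 genes, the summed level was 1873 to 1979 FPKM at 0 Gy and 1805 to 1858 FPKM at 10 Gy. As a share of all recovered reads it was 0.734 to 0.758% at 0 Gy and 0.735 to 0.750% at 10 Gy, so that the groups overlapped. As a share of the FPKM of all genes it was 0.695 to 0.721% at 0 Gy and 0.729 to 0.744% at 10 Gy, without overlap, which is the direction given by TPM. The reads behind each gene were between 406 and 685 per library for HSPA1A at 0 Gy, the lowest, and between 37239 and 52091 for HSP90AB1, the highest.

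Because HSF1 acts through heat shock elements, the RefSeq promoter windows of these genes (GRCh38.p14, from 250 bases before to 50 bases after each annotated start) were searched on both strands for their letters. The long motif was GAANNTTCNNGAA or TTCNNGAANNTTC, and the short motif was GAANNTTC or TTCNNGAA. Each long motif contains 2 overlapping short ones. The long motif was found in 172 of all 35116 promoter windows, or 0.49%, and the short motif, within a long one or alone, in 13.5%. The 10 genes had 16 windows, 1 for each annotated start. Of these, 4 held a long motif, in HSPA8, HSP90AA1, HSP90AB1 and HSPD1, and 9 held a short one, from 8 of the 10 genes. BAG3 and HSPH1 had neither in their windows, which says only that these letters do not occur there. A match describes letters and is not evidence of a bound site. The stretches with a long motif are shown first, since they are the rarest match among promoters, with the motif letters in capitals and the sequence 5′ to 3′ on the strand of the gene.
HSPA8 distal, chr11:123062334-123062386, minus strand: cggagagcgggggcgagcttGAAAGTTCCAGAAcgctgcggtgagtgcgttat
HSPA8 proximal, chr11:123062159-123062211, minus strand: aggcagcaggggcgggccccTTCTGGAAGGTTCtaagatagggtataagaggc
HSP90AB1, chr6:44247758-44247863, plus strand: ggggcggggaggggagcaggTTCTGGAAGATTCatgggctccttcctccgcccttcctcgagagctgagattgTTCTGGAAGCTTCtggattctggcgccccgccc
HSP90AA1, chr14:102087085-102087152, minus strand: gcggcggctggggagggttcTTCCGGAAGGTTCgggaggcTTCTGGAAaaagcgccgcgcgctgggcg
HSPD1, chr2:197500048-197500090, minus strand: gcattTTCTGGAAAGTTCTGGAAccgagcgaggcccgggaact
HSPA8 holds its copies 230 to 218 and 55 to 43 bases before the start. In HSP90AB1 the copies lie 165 to 153 and 112 to 100 bases before annotated start 3. In HSP90AA1 the single copy lies 88 to 76 bases before annotated start 2, next to a further short motif. HSPD1 holds 2 overlapping copies, 245 to 233 and 240 to 228 bases before annotated start 2, on the side of HSPE1, the neighbouring gene that encodes the cochaperonin HSP10 on the other strand. The windows at the other annotated starts of HSP90AB1, HSP90AA1 and HSPD1 held neither motif. DNAJB1 and HSPB1 are shown next, since they hold short motifs without a long one.
DNAJB1, chr19:14518417-14518494, minus strand: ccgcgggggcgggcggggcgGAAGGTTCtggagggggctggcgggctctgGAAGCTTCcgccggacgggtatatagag
HSPB1, chr7:76302471-76302518, plus strand: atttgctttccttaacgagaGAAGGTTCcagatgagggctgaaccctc
The stretch of DNAJB1 has short motifs 77 to 70 and 47 to 40 bases before its annotated start 2, and a further one lies 1 to 8 bases after start 3. The stretch of HSPB1 has a single one 182 to 175 bases before the start. HSPA1A and HSPA1B are shown side by side because their sequences are nearly the same, which bears on how well their reads can be told apart.
HSPA1A, chr6:31815343-31815462, plus strand: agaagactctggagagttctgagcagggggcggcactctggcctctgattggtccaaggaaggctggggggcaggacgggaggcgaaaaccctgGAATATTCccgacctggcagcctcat
HSPA1B, chr6:31827538-31827657, plus strand: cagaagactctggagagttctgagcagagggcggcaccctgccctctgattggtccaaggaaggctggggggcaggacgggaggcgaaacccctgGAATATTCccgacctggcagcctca
Both carry the same short motif, 106 to 99 bases before the start in HSPA1A and 105 to 98 in HSPA1B. Their promoter windows were identical in 277 of 301 aligned positions, or 92.0%, and their longest transcripts in 88.4%.

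**Figure D2:**
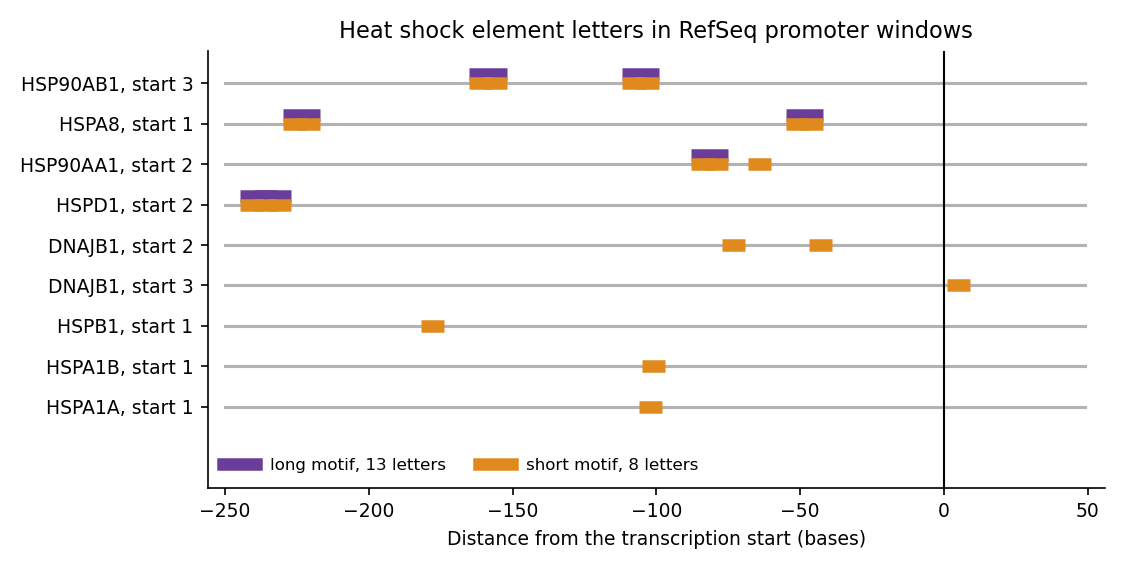
Positions of the heat shock element letters in promoter windows with a match, as bases from the transcription start (0, vertical line). Purple bars are long motifs and orange bars short motifs, and long motifs appear in 4 windows, those of HSP90AB1, HSPA8, HSP90AA1 and HSPD1.

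At 24 h after 10 Gy the heat shock genes did not move together. BAG3 and HSPH1 were higher, HSPA8, HSPA1B and DNAJB1 were lower, and the other 5 genes were not called. These 5 calls among 10 genes compare with 35.6% of all tested genes called in either direction, the 2 higher with 11.9% and the 3 lower with 23.7%. On the deposited scale no call reached 1.3-fold, a threshold that the study's methods use for a gene knockdown and not for irradiation. Of all genes, 5.77% did so together with the call (2.82% higher and 2.95% lower). Of the 10 genes, 1 reached it after TPM rescaling and 2 after upper quartile scaling, beside 1221 and 1699 of all tested genes. After median-of-ratios scaling 0 did, beside 675. All values at 10 Gy were above all values at 0 Gy for 2 of the 10 genes (19.1% of all genes) and below them for 4 (32.8%), 6 without overlap in all (51.9%). The median log2 fold change of the 10 was -0.05, beside -0.04 for all genes. The directions depend on the scaling. BAG3 and HSPH1 were called higher under all 18 alternatives tried. After TPM rescaling 5 genes were higher (BAG3, HSPH1, HSPB1, HSP90AA1 and HSPD1) and only HSPA8 was lower. Of all 12128 tested genes, 3113 were then higher and 1066 lower. After upper quartile scaling 4 were higher (BAG3, HSPH1, HSPB1 and HSP90AA1) and 0 lower, beside 3923 and 122 of all tested genes. After median-of-ratios scaling 3 were higher (BAG3, HSPH1 and HSPB1) and 3 lower (HSPA8, HSPA1B and DNAJB1), beside 1945 and 2047 of all tested genes. Relative to the median of all genes, BAG3, HSPH1 and HSPB1 lay above and HSPA8, HSPA1A, HSPA1B and DNAJB1 below it with the deposited FPKM and under the TPM, upper quartile and median-of-ratios scalings. Such scalings largely keep these places by construction. HSP90AA1 lay 0.05 to 0.09 and HSPD1 0.02 to 0.06 above that median on these 4 scales, and HSP90AB1 lay 0.02 to 0.03 below it on 3 of them and 0.01 above it after upper quartile scaling.

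**Figure D3:**
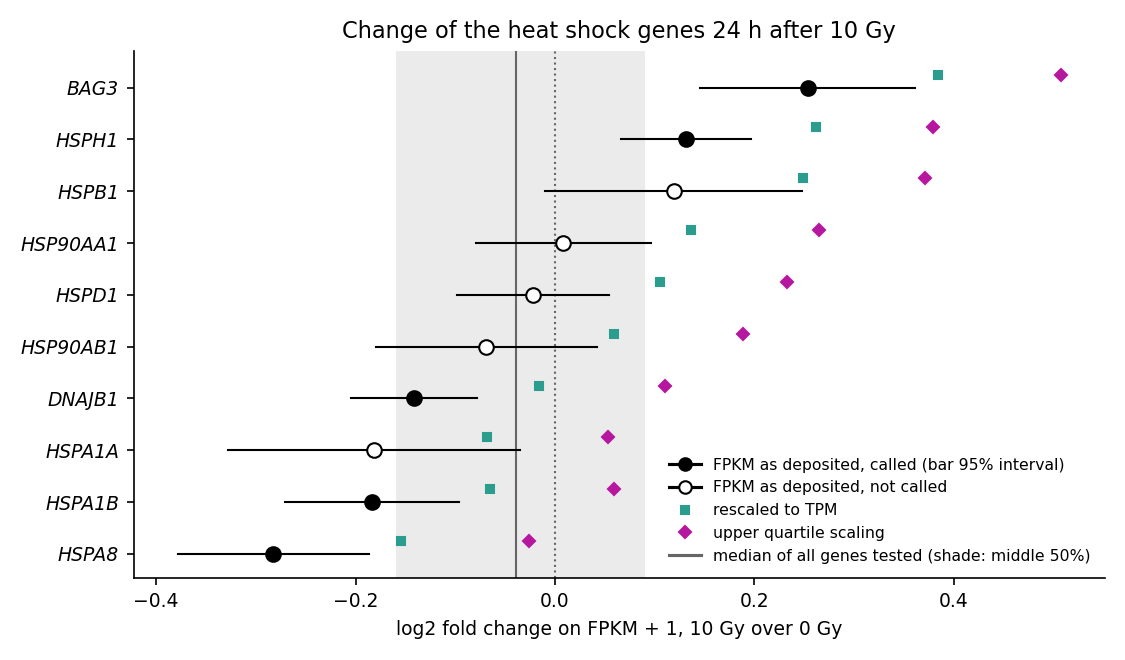
The log2 fold change of each heat shock gene on the log2(FPKM + 1) scale, 10 Gy over 0 Gy. Circles are the deposited FPKM with 95% intervals, filled where called, squares are TPM and diamonds upper quartile scaling, and the solid line and shade are the median (-0.04) and middle 50% of all genes tested. BAG3 is at the top (0.25) and HSPA8 at the bottom (-0.28), and the alternative scalings move all genes to the right by similar amounts, past 0 for DNAJB1, HSPA1A and HSPA1B under the upper quartile and for HSP90AB1 and HSPD1 under both.

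HSPA8 encodes Hsc70, the constitutive cytosolic HSP70 that folds new proteins and uncoats clathrin vesicles, and lies at chr11:123057489-123063230 on the minus strand of GRCh38. Its levels were 422, 422 and 400.0 FPKM at 0 Gy and 349, 333 and 341 FPKM at 10 Gy. Every 10 Gy library lay below every 0 Gy library, and the distance between the groups was larger than the spread within them. The mean went from 415 ± 12.7 to 341 ± 8.31 FPKM (SD, n = 3), a log2 fold change of -0.28 (standard error 0.041, limma with Benjamini-Hochberg adjusted p = 0.0028). This was the largest change among the 10 genes on the deposited scale, lower than that of all but 8.39% of the genes tested. Relative to the median of all genes it was -0.24, and between -0.23 and -0.20 after TPM and upper quartile scaling. Under upper quartile scaling the absolute change was -0.03 and was not called (limma adjusted p = 0.854, with a range over the 18 alternatives from 7.3e-06 to that value).

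HSPA1B (chr6:31827735-31830255, plus strand) and HSPA1A (chr6:31815464-31817946, plus strand) encode practically the same stress-inducible HSP70 protein, HSP72, in a pair of neighbouring genes of the major histocompatibility region. Of the stretches of 150 bases, the read length given in the methods, 63.2% in the transcripts of HSPA1A also occur in HSPA1B, and 66.0% of those of HSPA1B occur in HSPA1A. How the deposited counting dealt with such reads is not given in the sources used here, so the division between these genes is uncertain. The level of both genes is uncertain too, since it would be too low if such reads were left out. HSPA1B was at 18.0, 17.4 and 18.1 FPKM at 0 Gy and at 14.9, 16.1 and 15.8 FPKM at 10 Gy. HSPA1A was at 11.1, 10.6 and 12.7 FPKM at 0 Gy and at 10.2, 9.93 and 9.80 FPKM at 10 Gy. In both genes the 10 Gy libraries lay below all 0 Gy libraries, and for HSPA1A the third control library stood apart upward. The log2 fold change of HSPA1B was -0.18 (standard error 0.037, limma adjusted p = 0.0094), and the gene was called lower. HSPA1A had the same log2 fold change of -0.18 with a larger standard error of 0.063 and was not called (limma adjusted p = 0.058), whereas without 0 Gy replicate 2 it was -0.23 and was called (limma adjusted p = 0.031, with a range over the 18 alternatives from 0.011 to 0.707). Without 0 Gy replicate 3, the library that stood apart, the change of HSPA1A was smaller at -0.11 and was not called (limma adjusted p = 0.092). HSPA1A was also called with limma-voom, with a minimum of 5 FPKM and among protein-coding genes alone. Summed, the pair went from 29.3 ± 1.40 to 25.6 ± 0.407 FPKM (SD, n = 3), a log2 fold change of -0.19 (standard error 0.040, limma adjusted p = 0.011). The sum removes the division of shared reads if these were counted for either gene, but cannot restore reads that were left out. With upper quartile scaling HSPA1A and HSPA1B changed sign to 0.05 and 0.06 and neither was called, while relative to the median of all genes both were then at -0.12.

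HSP90AB1 (chr6:44246166-44253888, plus strand) and HSP90AA1 (chr14:102080738-102139699, minus strand) encode the constitutive and the inducible isoform of cytosolic HSP90. HSP90AB1 was at 819.7, 813 and 761 FPKM at 0 Gy and at 763, 749 and 769 FPKM at 10 Gy. The groups overlapped through the third control library, which was lower than the other two. The log2 fold change was -0.07 (95% interval -0.18 to 0.04, limma adjusted p = 0.290), and it became 0.06 after TPM and 0.19 after upper quartile scaling, not called in either. HSP90AA1 was at 371, 372 and 362 FPKM at 0 Gy and at 369, 361 and 380.3 FPKM at 10 Gy, and the groups overlapped. Its log2 fold change was 0.01 (95% interval -0.08 to 0.10, limma adjusted p = 0.880), and without 0 Gy replicate 3 or 10 Gy replicate 3 it was -0.0036 or -0.01. It was called higher only after TPM (0.14, adjusted p = 0.010) and upper quartile scaling (0.26, adjusted p = 0.043), and over the 18 alternatives the adjusted p lay between 0.010 and 0.961. HSP90AA1 overlaps WDR20 (4.27 FPKM) on the opposite strand, and whether the counting used strand is not given in the sources used here.

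The cochaperones of HSP70 went in different directions. DNAJB1 (chr19:14514770-14529770, minus strand) encodes HSP40, a J-domain protein that hands substrates to HSP70 and stimulates its ATPase. It was at 51.0, 50.9 and 50.8 FPKM at 0 Gy and at 45.4, 46.3 and 46.5 FPKM at 10 Gy. The control libraries were nearly equal, and all 10 Gy libraries lay below them. Its log2 fold change was -0.14 (standard error 0.027, limma adjusted p = 0.0075), which became -0.02 after TPM (adjusted p = 0.679) and reversed to 0.11 after upper quartile scaling (adjusted p = 0.337). Over the 18 alternatives the adjusted p of DNAJB1 lay between 0.0038 and 0.679. Relative to the median of all genes it was -0.10, -0.09 and -0.07 on these 3 scales. DNAJB1 overlaps TECR, which was at 29.7 FPKM on the opposite strand, and without strand their shared reads cannot be told apart.

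HSPH1 (chr13:31134974-31162388, minus strand) encodes HSP110, a nucleotide exchange factor of HSP70 that takes part in disaggregation. Its levels were 24.8, 25.1 and 25.3 FPKM at 0 Gy and 27.5, 27.2 and 27.9 FPKM at 10 Gy. All 10 Gy libraries were above all 0 Gy libraries. The log2 fold change was 0.13 (standard error 0.028, limma adjusted p = 0.011), and over the 18 alternatives it lay between 0.12 and 0.38 with adjusted p between 0.0016 and 0.048.

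BAG3 (chr10:119651370-119677819, plus strand) encodes another exchange factor of HSP70, which routes damaged proteins and filamin to autophagy and binds small heat shock proteins. It was at 72.3, 64.5 and 65.4 FPKM at 0 Gy and at 79.9, 80.4 and 80.9 FPKM at 10 Gy. The 10 Gy libraries were nearly equal and lay above all 0 Gy libraries, of which the first was the highest. The mean rose from 67.4 ± 4.25 to 80.4 ± 0.463 FPKM (SD, n = 3), a log2 fold change of 0.25 (standard error 0.046, limma adjusted p = 0.0063). That was the largest rise among the 10 genes and higher than the change of 91.6% of the genes tested. Over the 18 alternatives the log2 fold change lay between 0.22 and 0.51 with adjusted p between 0.00017 and 0.029.

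HSPB1 (chr7:76302544-76304295, plus strand) encodes HSP27, a small heat shock protein that holds unfolded proteins without using ATP. It was at 46.9, 41.1 and 41.1 FPKM at 0 Gy and at 45.7, 46.6 and 47.9 FPKM at 10 Gy. The groups overlapped because the first control library stood near the 10 Gy level, apart from the others. The log2 fold change was 0.12 (standard error 0.055, limma adjusted p = 0.130) and the gene was not called, whereas without 0 Gy replicate 1 it was 0.18 and was called (adjusted p = 0.0066). It was also called after median-of-ratios, TPM and upper quartile scaling, with log2 fold changes of 0.17, 0.25 and 0.37 (limma adjusted p = 0.041, 0.0060 and 0.0077), and the 18 alternatives gave adjusted p between 0.0060 and 0.301. Rows of its processed pseudogenes, chiefly HSPB1P1 at 0.327 FPKM, came to 1.20% of its level.

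HSPD1 (chr2:197486581-197516737, minus strand) encodes HSP60, which forms the folding chamber of the mitochondrial matrix. It was at 143, 138 and 137 FPKM at 0 Gy and at 136, 136 and 139 FPKM at 10 Gy. The groups overlapped, and the log2 fold change was -0.02 (95% interval -0.10 to 0.05, limma adjusted p = 0.623). It reversed to 0.03, 0.11 and 0.23 after median-of-ratios, TPM and upper quartile scaling and was called after TPM alone (adjusted p = 0.016, the lowest of the 18 alternatives, of which the highest was 0.955). The 17 rows of its pseudogenes, chiefly HSPD1P1 at 2.89 FPKM, came to 3.14% of its level, and HSPD1 overlaps HSPE1 and MOB4 on the opposite strand.

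Ratios of genes within a library do not depend on how libraries are scaled, and 4 were compared, of which the last 2 were chosen after their genes' values were seen. The ratio of inducible to constitutive HSP90, HSP90AA1 to HSP90AB1, was 0.452, 0.457 and 0.475 at 0 Gy and 0.484, 0.483 and 0.494 at 10 Gy. The 10 Gy libraries all had the higher ratio, by 0.08 on the log2 scale (two-sided exact permutation p = 0.1, the smallest that 3 libraries against 3 allow). The ratio of inducible to constitutive HSP70, the sum of HSPA1A and HSPA1B over HSPA8, was 0.0690, 0.0664 and 0.0770 at 0 Gy and 0.0721, 0.0782 and 0.0750 at 10 Gy. These groups overlapped, with a log2 difference of 0.09 (two-sided exact permutation p = 0.3). The values of this ratio would be too low if reads shared by HSPA1A and HSPA1B were left out of the counts. They would be lower with the longest coding transcripts as lengths, by which HSPA8 went from 415 to 816 FPKM at 0 Gy while HSPA1A and HSPA1B did not change. The values of all 4 ratios depend on gene length in this way, while their log2 differences were practically unchanged when taken on recovered reads. The ratio of BAG3 to HSPA8 was 0.171, 0.153 and 0.164 at 0 Gy and 0.229, 0.242 and 0.237 at 10 Gy. It was higher at 10 Gy in every library, by 0.54 on the log2 scale (SD of log2 ratios 0.083 and 0.040, two-sided exact permutation p = 0.1, again the smallest possible). The ratio of HSPE1 to HSPD1, the lid and the barrel of the mitochondrial chaperonin, was 0.259, 0.252 and 0.267 at 0 Gy and 0.210, 0.221 and 0.220 at 10 Gy, a log2 difference of -0.26 without overlap (two-sided exact permutation p = 0.1). With 3 libraries a group, no such test can pass a threshold of 0.05, so none of the 4 ratios can be called. Adjusted over the 4 by Benjamini-Hochberg, the exact permutation p of 0.1 became 0.133 and that of 0.3 stayed at 0.3. For the sum of HSPA1A and HSPA1B over HSPA8, the difference was 0.04 without 0 Gy replicate 2, 0.06 without 10 Gy replicate 2 and 0.15 without 0 Gy replicate 3.

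**Figure D4:**
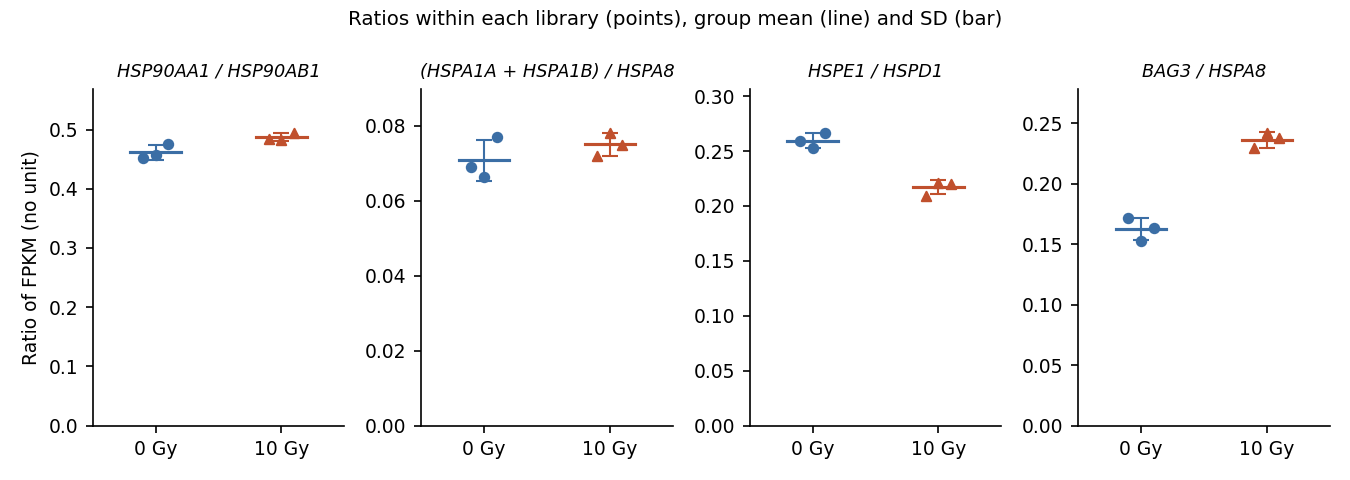
Ratios of FPKM within each library (no unit, axes from 0) for 4 pairs of genes, with circles for 0 Gy, triangles for 10 Gy, lines for means and bars for SD (n = 3). BAG3 to HSPA8 rises from a mean of 0.163 to 0.236 and HSPE1 to HSPD1 falls from 0.259 to 0.217 without overlap, and (HSPA1A + HSPA1B) to HSPA8 overlaps.

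The other genes of the chaperone network were taken from 9 lists with 88 genes, of which 75 passed the filter on low values. Among these, 2 (2.67%) were higher and 32 (42.7%) were lower at 10 Gy, where 11.9% and 23.7% of all tested genes were, and their median log2 fold change was -0.11 beside -0.04 for all genes. With the filter raised to a mean of 5 FPKM, 874 of 7262 genes were higher and 2734 lower, with a median of -0.08. Under that filter 2 genes of the lists were higher and 32 lower. Falls were thus more common among abundant genes in general, and the part of this in the counts of the lists was not tested. The balance depends on scaling, with 10 higher and 11 lower after TPM and 9 higher and 0 lower after upper quartile scaling. After median-of-ratios scaling it was 4 higher and 21 lower. Of the 12128 genes tested, 3113 were higher and 1066 lower after TPM and 3923 and 122 after upper quartile scaling. After median-of-ratios scaling 1945 of them were higher and 2047 lower. These are the counts to set beside those of each list below. Fewer were called without 10 Gy replicate 1 (1 higher and 18 lower) or without 10 Gy replicate 2 (1 and 19), as for all genes, of which 2705 and 2660 were called in place of 4317. The 2 called higher were DNAJB4 and ST13.

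The regulators of the response came first. HSF1, the master factor of the heat shock response, was at 25.6 ± 1.42 FPKM at 0 Gy and 23.7 ± 0.269 FPKM at 10 Gy (SD, n = 3), with a log2 fold change of -0.10 (limma adjusted p = 0.101). It was called with limma-voom on recovered reads (-0.11, adjusted p = 0.046) and without 0 Gy replicate 2 (-0.15, limma adjusted p = 0.019, with 0.721 the highest of the 18 alternatives), and its sign turned after TPM (0.02) and upper quartile scaling (0.14). HSF2, a related factor, was at 9.95 ± 0.643 and 10.1 ± 0.547 FPKM (SD, n = 3) with a log2 fold change of 0.02 (limma adjusted p = 0.809), which was -0.01 without 0 Gy replicate 2 or 10 Gy replicate 1. None of the 5 tested HSF regulators was called.

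Among the other HSP70 family members, 1 of 5 tested was lower. It was HSPA14, a ribosome-associated HSP70, with a log2 fold change of -0.23 (limma adjusted p = 0.0071), or 0.01 after upper quartile scaling. Counts of higher and lower genes in this list were 1 and 1 after TPM, 1 and 0 after upper quartile scaling, and 0 and 1 after median-of-ratios scaling. HSPA6, the strictly stress-inducible member, named here after its values were seen, was under the filter with means of 0.501 FPKM at 0 Gy and 0.368 FPKM at 10 Gy. Of 15 J-domain proteins of the cytosol and nucleus, 1 was higher and 2 were lower. These counts were 3 and 1 after TPM, 2 and 0 after upper quartile scaling, and 2 and 2 after median-of-ratios scaling. DNAJB4, a relative of DNAJB1, went from 5.13 ± 0.317 to 6.75 ± 0.493 FPKM (SD, n = 3), a log2 fold change of 0.34 (limma adjusted p = 0.0062) that was called in all 18 alternatives. Its direction is the opposite of that of DNAJB1 on the deposited scale. DNAJC9, a histone chaperone of dividing cells, had the largest fall of that list, with a log2 fold change of -0.41 (limma adjusted p = 0.00059). Under upper quartile scaling it was -0.16 and was not called (limma adjusted p = 0.152).

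Of 8 exchange factors and partners of HSP70, 5 were lower and 1 was higher on the deposited scale. After median-of-ratios scaling 3 were lower and 1 higher, after TPM 0 were lower and 1 higher, and after upper quartile scaling 0 were lower and 2 higher. On each of these scales 6 of the 8 lay below the median of all genes, a place that scaling largely keeps by construction. BAG2, an inhibitor of the ubiquitin ligase CHIP, had a log2 fold change of -0.23 (limma adjusted p = 0.0049), which was 0.00403 after upper quartile scaling. ST13, which encodes the HSP70-interacting protein Hip, had 0.12 (limma adjusted p = 0.029). That call was lost in all leave-one-out fits but the one without 0 Gy replicate 1, with adjusted p between 0.052 and 0.095. Of 14 HSP90 cochaperones 5 were lower and 0 higher on the deposited scale, but 2 were lower and 4 higher after TPM. After upper quartile scaling 0 were lower and 3 higher, and after median-of-ratios scaling 3 were lower and 1 higher. PPP5C, a protein phosphatase bound to HSP90, showed the largest fall of that list (log2 fold change -0.31, limma adjusted p = 0.0010), which was -0.06 and not called after upper quartile scaling (limma adjusted p = 0.571). Only 2 of 9 other small heat shock protein genes passed the filter, neither was called, and 4 were listed at 0 in every library.

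Among the other mitochondrial chaperones and the proteases listed with them, falls were common on the deposited scale. Of these 12 genes, 8 were lower and 0 higher, with a median log2 fold change of -0.19. After TPM 4 were lower and 1 higher, and after upper quartile scaling 0 were lower and 1 higher. After median-of-ratios scaling 6 were lower and 0 higher. HSPE1 (HSP10), which shares a promoter region with HSPD1, went from 36.1 ± 1.19 to 29.7 ± 1.16 FPKM (SD, n = 3), a log2 fold change of -0.27 (standard error 0.040, limma adjusted p = 0.0031). Rows of HSPE1 pseudogenes, chiefly HSPE1P2, came to 9.89% of its level. HSPA9, the mitochondrial HSP70 called mortalin, went from 68.1 ± 0.977 to 54.7 ± 0.771 FPKM (SD, n = 3), a log2 fold change of -0.31 (limma adjusted p = 0.00070). GRPEL2, a nucleotide exchange factor of mortalin, had the largest fall of the list, -0.40 (limma adjusted p = 0.00081). These 3 genes stayed below 0 after upper quartile scaling (-0.02, -0.06 and -0.17) but were not called there, with limma adjusted p of 0.861, 0.633 and 0.152. Relative to the median of all genes, 11 of the 12 lay below under each of the 4 scalings, which largely keep this place by construction.

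The cytosolic chaperonin TRiC, a ring that folds actin and tubulin, had 7 of 8 subunits lower, and prefoldin, which delivers nascent chains to it, had 4 of 6 lower. The largest falls were those of CCT5, with a log2 fold change of -0.21 (limma adjusted p = 0.0050), and of PFDN2, with -0.37 (limma adjusted p = 0.0035). After upper quartile scaling these were 0.04 and -0.12 and no subunit of either complex was called, and after TPM 1 TRiC and 2 prefoldin subunits were lower. After median-of-ratios scaling 3 TRiC and 3 prefoldin subunits were lower. All 8 and all 6 lay below the median of all genes under each of the 4 scalings, which largely keep this place by construction.

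**Figure D5:**
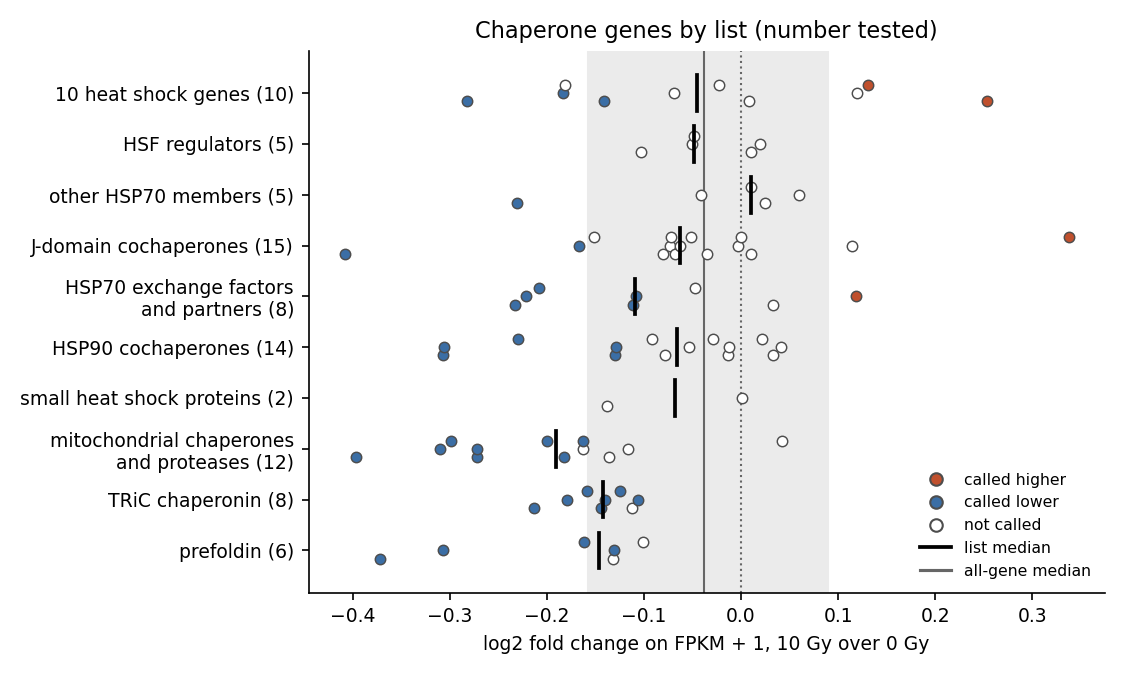
The log2 fold change of chaperone genes by list (each point a gene, 10 Gy over 0 Gy, log2(FPKM + 1) scale), red where called higher, blue where called lower and white where not called, with black bars for list medians, a grey line for the median of all genes (-0.04) and shade for their middle 50%. Mitochondrial chaperones (median -0.19), TRiC (-0.14) and prefoldin (-0.15) lie to the left on the deposited scale, and TRiC and prefoldin shift to medians of 0.11 and 0.10 after upper quartile scaling. After median-of-ratios scaling the medians of TRiC and prefoldin are -0.09 and -0.10.

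The promoter letters were also set beside the changes. Besides the 10 genes, 35 tested genes had a long motif in a promoter window, of which 5 were higher (14.3%) and 10 lower (28.6%). Among all 8640 other tested genes with a promoter window, 11.9% were higher and 26.0% lower. Of the 4 genes with a long motif described above, HSPA8 was lower and HSP90AA1, HSP90AB1 and HSPD1 were not called, and the called rises of BAG3 and HSPH1 occurred in genes without either motif in these windows.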

How the data were processed

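RNA of 6 MDA-MB-231 libraries, 3 at 0 Gy and 3 collected 24 h after 10 Gy, was enriched for polyA and sequenced as pairs of 150 bases by a provider. The authors deposited FPKM values per gene, and the submitters' processing notes name HISAT2 and GRCh38. The counting program, its strand setting and its treatment of reads that fit several genes are not given in the sources used here. All 58735 gene identifiers and their coordinates were those of GENCODE 29, and the deposited lengths equalled the summed exon bases in 99.98% of rows. Multiplying FPKM by length and implied depth gave whole reads (tolerance 0.01) for 100% of values above 0. All value columns were matched to samples by name.

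The deposited FPKM were put on a log2 scale after adding 1 and fitted by limma 3.58.1 (R 4.3.3; eBayes, trend) for genes that averaged 1 FPKM or more. A fold change on this scale understates the change of low genes. Ratios were compared by exact permutation. The procedure was tested on simulated data. Members, gene lists, tests and promoter motifs were chosen with earlier results of these data known. Named genes are the 10 heat shock genes, HSF1, HSF2, HSPE1, HSPA9, the called gene with the largest rise and the largest fall in each list, and pseudogenes of at least 1% of a member's level. Where a symbol had several rows, its highest was used. The 18 alternatives covered pseudocount, filters, scalings, the replicate block, eBayes settings, limma-voom on recovered reads, protein-coding genes alone, HSPA1A and HSPA1B summed, and each library left out. Promoter windows came from RefSeq on GRCh38.p14 and were matched by symbol for all 10 genes. Plots were made in matplotlib 3.10.9 (Python 3.11.15).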

Additional observations from a re-analysis of the deposited data

How the results depend on the processing

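Scaling changed the split by direction, while the number of genes called stayed between 3992 and 4179 in place of 4317. Counts of higher and lower genes were 3113 and 1066 after TPM and 3923 and 122 after upper quartile scaling, in place of 1443 and 2874, so that 74.5% and 97.0% of calls were higher in place of 33.4%, beside 48.7% after median-of-ratios scaling. For the heat shock genes these counts were 5 and 1, 4 and 0, and 3 and 3 after median-of-ratios scaling. For the pathway lists they were 10 and 11 (21 in all), 9 and 0 (9 in all), and 4 and 21 after median-of-ratios scaling. Without a filter on low values 1815 genes were lower, and 21 pathway genes were called, 1 higher and 20 lower. A minimum of 5 FPKM left 874 genes higher, from fewer genes tested, and eBayes without trend left 1 pathway gene higher. Leaving out each library in turn gave 2660 to 3993 genes called (852 to 1393 higher, 1808 to 2630 lower), 5 or 6 heat shock genes and 19 to 29 pathway genes (1 to 2 higher, 18 to 28 lower). Signs turned after TPM for HSP90AB1 (0.0595), HSPD1 (0.106) and HSF1 (0.0206). They turned after upper quartile scaling for HSP90AB1 (0.188), HSPD1 (0.233), DNAJB1 (0.111), HSPA1B (0.0593), HSPA1A (0.0534), HSPA14 (0.00873), BAG2 (0.00403), CCT5 (0.0412) and HSF1 (0.144), and after median-of-ratios scaling for HSPD1 (0.0255). Leave-one-out fits turned HSP90AA1 (lowest -0.0111, highest 0.0256) and HSF2 (lowest -0.0143, highest 0.0662). The cause was not tested beyond the change in scale itself. Limits are the depth of HSPA1A, its reads shared with HSPA1B, the unknown strand setting and 3 libraries a group. A further limit is that the upper quartile rests on unequal numbers of values above 0.

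A replicate block in the model left 3503 genes called by limma, with 5 of the 10 heat shock genes and 24 pathway genes, of which 1 was higher. Deviations of same-numbered libraries from their group means correlated at -0.0405, -0.0349 and -0.101 across genes. These values show no pairing by number, but with 3 libraries a group they cannot tell whether replicates were handled in pairs.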
